A study of Mus musculus with 27 samples.

Results

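B4galt1, B3gnt2 and Gcnt2 are the enzymes that build, lengthen and branch poly-N-acetyllactosamine chains, and their transcripts were followed across 9 tissues taken from male wild-type C57BL/6 mice that were 6 to 8 weeks old. Members were chosen by name: every mouse probe set that the platform annotation assigns to one of these 3 genes was taken, which gave 6 of 702 mouse probe sets (3 of 573 genes). B4galt1 had 1 probe set (J03880_at), B3gnt2 had 2 (AY043479_at and AY043479_s_at) and Gcnt2 had 3 (AB037597_s_at, U68182_at and U68182_s_at). Biotin-labelled total RNA of lymphoid and blood-forming tissues (bone marrow, thymus, spleen and lymph node) and of brain, lung, liver, kidney and testis was read on a 1-colour Affymetrix array designed for glycogenes, with 3 arrays per tissue and 27 in all. C57BL/6 is an inbred laboratory strain, and no animal was treated or carried an engineered allele. The labels leave unsaid whether a tissue's 3 arrays stand for separate animals, so p-values set differences only against the spread between these arrays. In whole tissue fewer cells of a type and less RNA per cell cannot be told apart.

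Poly-N-acetyllactosamine is a repeat of galactose and N-acetylglucosamine on branched N-glycans, on O-glycans and on glycolipids, where it serves as a ligand of galectins and as the backbone of Lewis and blood group epitopes. B4galt1 transfers galactose to terminal N-acetylglucosamine, B3gnt2 adds the next N-acetylglucosamine to that galactose, and the alternation of the pair lengthens the chain. Gcnt2 adds N-acetylglucosamine to galactoses within the chain, which turns the linear i antigen into the branched I antigen. B4galt1 also makes lactose in the mammary gland when it is bound by alpha-lactalbumin.

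Values are deposited intensities on a linear scale, given per array or as the tissue mean ± SD (n = 3 arrays), and differences are log2 differences ± SE from the limma fit. A difference was called at an adjusted p under 0.05 together with an absolute size of at least 1 on the log2 scale, and the F test over tissues at the same adjusted p where tissue means spanned 1 or more. The array also holds 839 human probe sets, which served as a rough measure of signal that is not specific for a mouse transcript. Their median intensity was 205.2, their 5th percentile 58.3 and their 95th percentile 590.1. Array medians over all 1813 probe sets lay between 221.5 and 243.7, and each of the 27 arrays correlated best with an array of its own tissue. Marker genes peaked in the labelled tissue for 3 of 3 measured markers of bone marrow, 3 of 3 of liver, 2 of 2 of lung, 4 of 4 of lymph node, 2 of 2 of thymus, 4 of 5 of spleen and 4 of 6 of brain, and no listed marker of kidney or testis was measured.

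The 6 probe sets fell into those with a called tissue pattern and those without one. By limma's moderated F test 4 of the 6 were called (B4galt1, both of B3gnt2 and U68182_s_at of Gcnt2), beside 52.3% of all 702 mouse probe sets. B4galt1 ranged over 2.66 on the log2 scale (6.31-fold, adjusted p = 8.67e-12), from bone marrow down to brain. B3gnt2 ranged over 1.71 (3.27-fold, adjusted p = 3.66e-12) on AY043479_s_at and over 1.28 (2.43-fold, adjusted p = 1.97e-08) on AY043479_at. Gcnt2 ranged over 1.68 (3.21-fold, adjusted p = 2.87e-08) on U68182_s_at, over 0.35 on AB037597_s_at (adjusted p = 0.0152, under the threshold on size) and over 0.40 on U68182_at (adjusted p = 0.284). The median range over all 573 genes was 1.003.

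**Figure D1:**
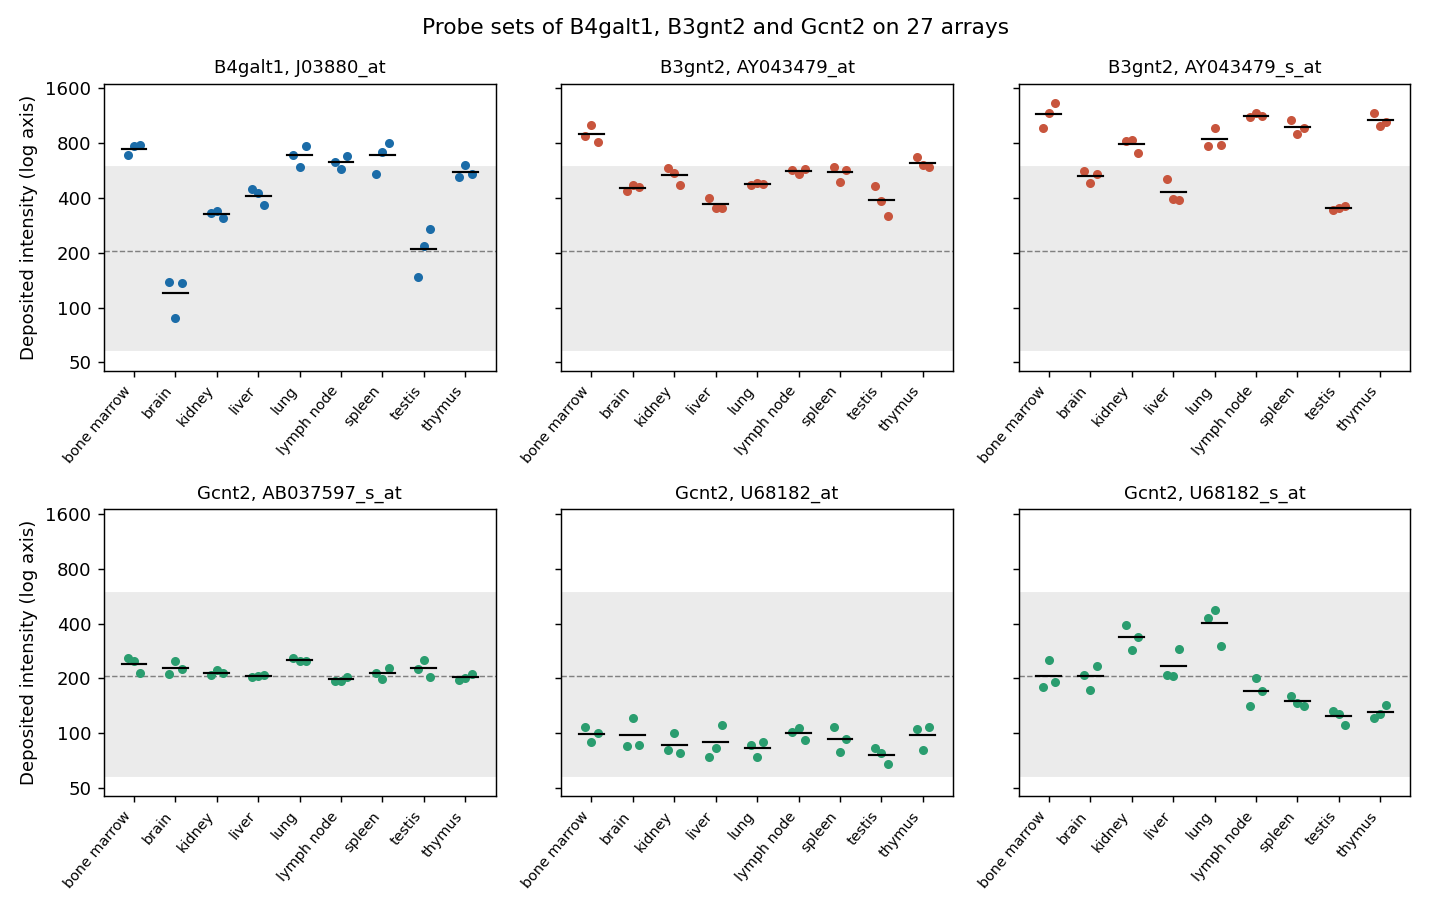
Deposited intensity (log axis) of each of the 6 probe sets on 27 arrays by tissue, with points for the 3 arrays and a black bar for their mean; the grey band spans the 5th to 95th percentile of human probe sets (58.3 to 590.1) and the dashed line their median (205.2). B4galt1 is lowest in brain, B3gnt2 is highest in bone marrow on both probe sets, and U68182_s_at is the Gcnt2 probe set whose tissue means spread, with lung and kidney on top.

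B4galt1 was low in brain and testis and high in bone marrow, lung and the lymphoid organs. The 3 brain arrays read 138.5, 87.9 and 136.0, and the 3 testis arrays 147.0, 217.6 and 269.2. The bone marrow arrays read 692.1, 768.9 and 780.8. The brain arrays lay below all 24 arrays of the other tissues, which 1.28% of mouse probe sets did in brain, while the testis arrays lay above every brain array and below every array of the other 7 tissues. Lung read 692.0, 594.6 and 769.5, spleen 543.5, 718.0 and 801.1, and lymph node 634.6, 574.8 and 680.5. Thymus read 524.8, 609.3 and 540.3. These 4 tissues overlapped with each other, and lung and spleen also overlapped with bone marrow. Liver (447.4, 427.0 and 364.1) and kidney (332.9, 337.8 and 310.8) lay between, with every liver array above every kidney array.

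Compared with the average of the 8 remaining tissues, each weighted equally, B4galt1 fell by 2.05 ± 0.14 in brain (4.14-fold lower, adjusted p = 1.28e-11) and by 1.16 ± 0.14 in testis (2.23-fold lower, adjusted p = 1.56e-07). Over all mouse probe sets, 10.7% were called lower in brain and 13.4% in testis. The largest positive difference, 0.94 ± 0.14 in bone marrow (adjusted p = 5.17e-06), was under the threshold on size, as were lung (0.79), spleen (0.78), lymph node (0.66) and thymus (0.46), all at adjusted p under 0.05. With bone marrow, lymph node, spleen and thymus pooled as equal parts, B4galt1 was higher by 1.14 ± 0.09 than in the other 5 tissues (2.20-fold, adjusted p = 4.45e-11), a direction in which 11.5% of mouse probe sets were called. Those other 5 include brain and testis, which had the lowest levels. They also include lung, which differed from spleen by 0.006 ± 0.18 (adjusted p = 0.989). The testis difference rests on its lowest array: without testis replicate 1 it was -0.92 and no longer called.

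In the order of B4galt1 levels (bone marrow, lung, spleen, lymph node, thymus, liver, kidney, testis, brain) 2 of 8 neighbouring pairs differed at an adjusted p under 0.05. Kidney lay above testis by 0.67 ± 0.18 (adjusted p = 0.00495) and testis above brain by 0.79 ± 0.18 (adjusted p = 0.00136). From bone marrow to kidney no neighbouring pair passed, with adjusted p from 0.0629 (thymus and liver) to 0.989 (lung and spleen). Of the 36 tissue pairs, 16 were called for B4galt1, and 17% of tests were called over all mouse probe sets and pairs. All 7 pairs of brain with a tissue other than testis were among the called ones. Brain and testis means (120.8 ± 28.5 and 211.3 ± 61.3) lie near or below 205.2, the median of human probe sets, so folds against them are ratios of signals and not exact ratios of transcripts.

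The start region of B4galt1 is shown because this gene had the widest tissue range of the 3. RefSeq (GRCm38.p6) lists 1 start in the table used, and the 250 bases before it, chr4:40853985-40854234 on the minus strand, are written with GC boxes (GGGCGG or its reverse complement CCGCCC) in capitals.
B4galt1: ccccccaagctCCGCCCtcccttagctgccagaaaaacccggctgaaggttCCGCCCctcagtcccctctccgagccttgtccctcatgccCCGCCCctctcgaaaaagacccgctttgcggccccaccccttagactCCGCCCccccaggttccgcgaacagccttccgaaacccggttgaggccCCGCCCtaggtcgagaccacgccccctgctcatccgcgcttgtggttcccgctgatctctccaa
It holds 5 GC boxes, all in the CCGCCC orientation, and 66.4% G and C. Of 32851 windows of the same length in the table, 32.7% hold at least 1 GC box, and their median G and C content is 52.4%. The B3gnt2 window lies within the RefSeq span of the gene, so that it may hold transcribed sequence, and is not printed. It has 70.0% G and C and holds 4 GC boxes and 1 CCAAT box (CCAAT or ATTGG, found in 33.8% of windows). No match to TATAAA or its reverse complement TTTATA, found in 12.4% of windows, was present in the B4galt1, B3gnt2 or Gcnt2 windows. These are matches of letters and show no binding.

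B3gnt2, the enzyme that lengthens the chain, was highest in bone marrow and lowest in testis or liver, depending on the probe set. On AY043479_s_at the testis arrays read 342.1, 353.2 and 360.0, below all 24 other arrays, as 4.84% of mouse probe sets did in testis. Liver read 509.3, 396.8 and 388.0, and brain 563.6, 486.7 and 543.7. Brain and liver overlapped, and both lay below every array of the remaining 6 tissues. Kidney read 824.9, 836.2 and 707.7, and lung 775.5, 973.7 and 782.4. Spleen read 1070, 901.3 and 973.2, thymus 1173, 996.1 and 1050, and lymph node 1112, 1174 and 1122. Bone marrow read 969.0, 1176 and 1338 and overlapped with all 3 of these, so that the 4 lymphoid and blood-forming tissues formed a common upper range from 901.3 to 1338, which 1 lung array (973.7) also reached.

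On AY043479_at bone marrow stood alone: its arrays read 878.0, 1002 and 813.9, above all 24 others, which 2.99% of mouse probe sets did in bone marrow. Thymus followed at 669.7, 605.7 and 591.3. Lymph node (568.9, 544.4 and 575.4), spleen (595.3, 490.2 and 572.9) and kidney (583.7, 547.9 and 470.8) overlapped with each other. Lung read 470.0, 482.5 and 479.0, and brain 437.5, 469.1 and 459.4. Testis (466.8, 385.1 and 317.6) and liver (400.8, 354.8 and 352.9) had the lowest means and overlapped, and the highest testis array also reached the range of brain.

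In the comparison of each tissue with the other 8, 1 of 18 tissue differences of B3gnt2 was called: AY043479_s_at fell by 1.22 ± 0.09 in testis (2.33-fold lower, adjusted p = 8.37e-11), a call that 13.4% of mouse probe sets had. The same tissue gave -0.49 ± 0.09 on AY043479_at (adjusted p = 4.69e-05), under the threshold on size. Liver gave -0.90 ± 0.09 and -0.56 ± 0.09 on the s_at and the other probe set, and bone marrow 0.70 ± 0.09 and 0.88 ± 0.09, all at adjusted p under 0.05 and all under the threshold on size. The liver value of AY043479_s_at lay close to the threshold: it was -1.03 without liver replicate 1 and -1.08 when the reference was the other tissues' median. The 4 lymphoid and blood-forming tissues lay above the other 5 by 0.96 ± 0.06 on AY043479_s_at (adjusted p = 5.56e-13) and by 0.55 ± 0.06 on AY043479_at (adjusted p = 5.64e-09), again under the threshold on size.

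In the order of AY043479_s_at levels (bone marrow, lymph node, thymus, spleen, lung, kidney, brain, liver, testis) 2 of 8 neighbours differed at an adjusted p under 0.05, kidney above brain by 0.57 ± 0.12 (adjusted p = 5.82e-04) and brain above liver by 0.31 ± 0.12 (adjusted p = 0.0492). In the order of AY043479_at (bone marrow, thymus, lymph node, spleen, kidney, lung, brain, testis, liver) 1 of 8 did, bone marrow above thymus by 0.53 ± 0.12 (adjusted p = 0.00106). Of the 36 tissue pairs, 13 were called on AY043479_s_at and 2 on AY043479_at (17% of all tests over mouse probe sets and pairs were called), the latter being bone marrow against liver (1.28) and against testis (1.22). With quantile normalization 8 pairs were called on AY043479_s_at.

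The B3gnt2 probe sets, which carry the same accession in the annotation, gave a similar order of tissues but not the same differences. Their tissue means correlated with r = 0.85 (rho = 0.95, 9 tissues), beside a median r of 0.82 over the 136 pairs of probe sets of a gene on the array. The log2 difference of AY043479_s_at minus AY043479_at was 1.01 ± 0.08 (SD) in lymph node, 0.83 ± 0.06 in spleen, 0.81 ± 0.17 in lung and 0.79 ± 0.06 in thymus. It was 0.57 ± 0.06 in kidney, 0.36 ± 0.31 in bone marrow, 0.22 ± 0.16 in brain and 0.21 ± 0.11 in liver, and -0.13 ± 0.31 in testis. A constant offset between probe sets would have no meaning, but this one varied over 1.14 between tissues (limma F test on the differences, adjusted p = 3.78e-06) and was called, as were 36.8% of all such pairs. The size rests on testis replicate 1, whose AY043479_at value was the highest of the 3 testis arrays: without it the range was 0.98 and the pair was not called.

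**Figure D2:**
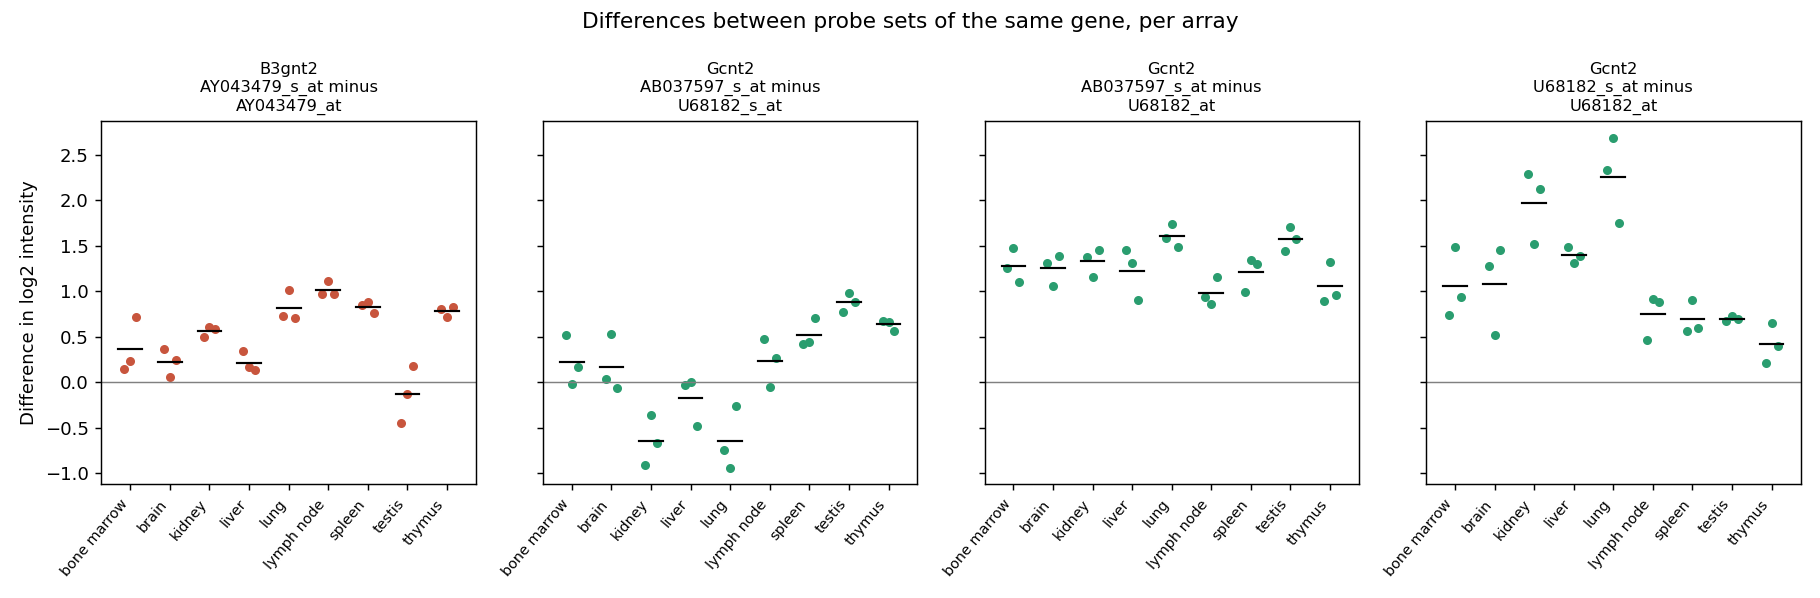
Difference in log2 intensity between probe sets of the same gene on each array (points) with the tissue mean (black bar), for the 1 pair of B3gnt2 and the 3 pairs of Gcnt2. For B3gnt2 the difference runs from -0.13 in testis to 1.01 in lymph node, and for U68182_s_at minus U68182_at of Gcnt2 from 0.42 in thymus to 2.25 in lung.

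Gcnt2, the branching enzyme, showed a called tissue pattern on U68182_s_at and not on its other probe sets. On U68182_s_at lung read 432.2, 477.1 and 300.0, and kidney 393.8, 285.3 and 339.4. Liver followed at 208.0, 206.6 and 292.1, bone marrow at 180.2, 251.7 and 190.5, and brain at 207.9, 173.0 and 235.0. Every lung array lay above every array of the 7 tissues other than kidney, with which lung overlapped. Lymph node read 140.5, 201.2 and 170.3, spleen 160.8, 146.8 and 141.5, thymus 122.1, 127.0 and 142.9, and testis 132.8, 128.0 and 110.5. Testis overlapped with thymus and lay below every array of the other 7 tissues. In lymph node, spleen, testis and thymus all arrays lay under the human median of 205.2, and no array of any tissue exceeded the human 95th percentile of 590.1.

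Lung was higher than the other 8 tissues by 1.10 ± 0.13 on U68182_s_at (2.15-fold, adjusted p = 3.20e-07), and 9.54% of mouse probe sets were called higher in lung. Without lung replicate 2 the difference was 0.97 and no longer called. Kidney was higher by 0.84 ± 0.13 (adjusted p = 1.32e-05), testis gave -0.79 ± 0.13 (adjusted p = 2.66e-05), thymus -0.70 ± 0.13 (adjusted p = 2.12e-04) and spleen -0.48 ± 0.13 (adjusted p = 0.00551), all under the threshold on size. On this probe set the 4 lymphoid and blood-forming tissues lay below the other 5 by 0.57 on the log2 scale (-0.57 ± 0.09, adjusted p = 3.26e-06), opposite in sign to B4galt1 and B3gnt2. Of the 36 tissue pairs 7 were called, a share near the 17% of all mouse probe sets and pairs; they were 4 of lung (against lymph node, spleen, testis and thymus) and 3 of kidney (against spleen, testis and thymus). In the order of levels (lung, kidney, liver, bone marrow, brain, lymph node, spleen, thymus, testis) 1 of 8 neighbours differed at an adjusted p under 0.05, kidney above liver by 0.53 ± 0.18 (adjusted p = 0.0229).

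Endothelial markers were high in lung, and in kidney they were mixed. All 5 listed markers were measured. The summed intensity of the 5 measured markers (Pecam1, Tek, Cd34, Emcn and Sele) was 6824 to 7804 in lung and 1920 to 2432 in kidney. It was 1806 to 2062 in lymph node, where U68182_s_at was below the human median, and between 800.1 and 1318 in the other 6 tissues. In lung 4 of the 5 had their highest mean, and Sele had its highest in testis. In kidney most of the sum was Emcn (mean 1136, beside 1199 in lung). Tek in kidney (378.4) was below lung (2733) and above the remaining tissues, which ran from 118.9 in bone marrow to 214.8 in liver. Pecam1 in kidney (158.2) was below its means in lymph node (583.8), spleen (314.4) and thymus (248.2). Cd34 in kidney (252.1) was below brain (278.6) and lymph node (317.5), and Sele had its lowest mean there (301.7). The part of these markers in the Gcnt2 difference was not tested.

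The other Gcnt2 probe sets also stayed within the range of the human probe sets in every tissue. On AB037597_s_at the 27 arrays lay between 194.2 and 258.6 with a median of 213.6, and tissue means ran from 198.1 ± 6.1 in lymph node to 252.4 ± 5.4 in lung. On U68182_at the arrays lay between 68.2 and 120.6 with a median of 89.5, all 27 below the human median, and tissue means ran from 76.3 ± 7.6 in testis to 100.4 ± 7.5 in lymph node. Neither gave a called tissue difference or a called tissue pair. Of the 36 pairs, 7 on AB037597_s_at and 1 on U68182_at had an adjusted p under 0.05, and no neighbours in either order did. Lung was the top tissue on AB037597_s_at too, by 0.22 ± 0.07 over the other 8 (adjusted p = 0.00829), while on U68182_at it gave -0.14 ± 0.12 (adjusted p = 0.351). The lymphoid and blood-forming tissues differed from the other 5 by -0.08 ± 0.04 on AB037597_s_at (adjusted p = 0.101). On U68182_at they lay higher by 0.18 ± 0.08 (adjusted p = 0.0402, under the threshold on size), the same sign as B4galt1 and B3gnt2.

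The Gcnt2 probe sets therefore disagreed. Over the 9 tissue means U68182_s_at correlated with AB037597_s_at at r = 0.48 and with U68182_at at r = -0.20, and AB037597_s_at with U68182_at at r = -0.36. The log2 difference of U68182_s_at minus U68182_at, which carry the same accession, was 2.25 ± 0.47 (SD) in lung, 1.97 ± 0.40 in kidney and 1.39 ± 0.09 in liver. It was 0.42 ± 0.22 in thymus, 0.69 ± 0.19 in spleen and 0.70 ± 0.03 in testis. The range of 1.83 was called (adjusted p = 4.51e-06), as was that of 1.52 between AB037597_s_at and U68182_s_at (adjusted p = 1.17e-06), while AB037597_s_at against U68182_at was not (0.62, adjusted p = 0.0136). Both called pairs include U68182_s_at. Of all 136 pairs of probe sets of a gene, 36.8% were called. Their median r was 0.82, and r was under 0 in 16 of them. The difference of U68182_s_at minus U68182_at exceeded that of the other 8 tissues by 1.24 ± 0.19 in lung (adjusted p = 1.32e-05, called) and by 0.93 ± 0.19 in kidney (adjusted p = 5.15e-04, under the threshold on size).

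RefSeq places the starts of Gcnt2 at 3 separate positions, and the 250 bases before each are shown because the probe sets of this gene disagree. The files do not pair probe sets with transcripts, so no probe set is assigned to a start. All are on the plus strand of GRCm38.p6, at chr13:40859518-40859767, chr13:40886508-40886757 and chr13:40917384-40917633 in this order, with GC boxes in capitals.
Gcnt2 start 1: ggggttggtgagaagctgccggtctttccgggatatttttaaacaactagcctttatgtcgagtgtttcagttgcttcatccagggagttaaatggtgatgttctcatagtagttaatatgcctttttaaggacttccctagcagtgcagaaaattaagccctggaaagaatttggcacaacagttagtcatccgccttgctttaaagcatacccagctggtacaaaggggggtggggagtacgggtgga
Gcnt2 start 2: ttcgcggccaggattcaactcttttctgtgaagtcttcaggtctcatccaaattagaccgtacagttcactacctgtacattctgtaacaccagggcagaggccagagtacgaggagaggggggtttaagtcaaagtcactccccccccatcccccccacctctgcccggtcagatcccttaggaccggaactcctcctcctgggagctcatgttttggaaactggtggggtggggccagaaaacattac
Gcnt2 start 3: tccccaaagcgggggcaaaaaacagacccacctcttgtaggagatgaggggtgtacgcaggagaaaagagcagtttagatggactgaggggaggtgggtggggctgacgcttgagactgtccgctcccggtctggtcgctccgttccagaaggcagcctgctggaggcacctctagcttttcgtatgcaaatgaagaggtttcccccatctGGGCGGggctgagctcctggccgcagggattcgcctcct
The windows differ in composition: 45.6%, 54.0% and 59.6% G and C, with 5, 6 and 11 CpG dinucleotides, where the B4galt1 window has 19, the B3gnt2 window 31 and the median window 6. The window of start 3 holds 1 GC box, and those of starts 1 and 2 hold none. The windows of starts 2 and 3 lie within the span of the gene from start 1.

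Human probe sets for the same enzymes on the same arrays varied less between tissues than the called mouse probe sets. The tissue means of the B4GALT1 probe set spanned 1.29-fold, where the mouse B4galt1 probe set spanned 6.31-fold. Over the 4 human probe sets of B4GALT1, GCNT2 and B3GNT2 the spans were 1.29-fold to 1.49-fold. AB037597_s_at and U68182_at of mouse Gcnt2 spanned 1.27-fold and 1.32-fold. The span of 1.49-fold, of a B3GNT2 probe set, was narrowed by raising values under 16 to 16. Its deposited tissue means ran from 13.1 in lung to 24.8 in lymph node. Levels of these human probe sets are those of other probes and do not measure the non-specific signal of the mouse probe sets.

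B4galt1 and B3gnt2 shared an upper group of tissues. Over the 9 tissue means B4galt1 correlated with AY043479_s_at at r = 0.74 (rho = 0.77) and with AY043479_at at r = 0.57 (rho = 0.63), while U68182_s_at of Gcnt2 correlated with B4galt1 at r = 0.10 and with AY043479_s_at at r = 0.06. The low U68182_at of Gcnt2 correlated with AY043479_s_at at r = 0.68, with AY043479_at at r = 0.65 and with B4galt1 at r = 0.31. For AB037597_s_at these were r = -0.10, 0.11 and -0.06. These describe 9 tissues measured on the same arrays. Bone marrow had the highest mean of B4galt1 and of both B3gnt2 probe sets. The orders were not the same. Lung ranked next to bone marrow for B4galt1 and below all 4 lymphoid and blood-forming tissues for AY043479_s_at, and brain was last for B4galt1 (120.8 ± 28.5) and above liver and testis for AY043479_s_at (531.3 ± 39.9). Leukocyte marker lists differed in how they ran beside these tissues. The summed T cell markers Il7r and Ccr7 (2 of 6 listed were measured) were 4249 to 5131 in lymph node, 2457 to 3076 in spleen, 1612 to 2018 in thymus and 1057 to 1209 in bone marrow, and between 401.3 and 726.0 in the other 5 tissues. The 4 measured macrophage and monocyte markers of 6 summed to 3225 to 5450 in bone marrow, 2331 to 2619 in spleen, 1840 to 2749 in lymph node, 1294 to 1956 in lung and 960.7 to 1311 in thymus, and between 173.1 and 946.2 in the other 4. These markers did not run alike. Most of the bone marrow sum was Clec7a (mean 2862) and Ccr2 (1360). Mrc1 was 183.2 in bone marrow, below liver (492.8), lung (592.2), lymph node (893.9) and spleen (1361). Siglec1 ran only from 65.8 in bone marrow to 81.3 in thymus. The 5 neutrophil markers stood apart in bone marrow (4022 to 6349) and overlapped between lymph node (2714 to 2764) and testis (2393 to 2760), with 1960 to 3133 over the 8 tissues other than bone marrow. The 4 measured B cell markers of 5 did not follow the B4galt1 and B3gnt2 order: they summed to 8054 to 8981 in lymph node and 8450 to 8864 in spleen, but to 5577 to 6467 in bone marrow and 5271 to 6131 in thymus, close to lung (4686 to 5899) and brain (4542 to 5217). Their sums were 2360 to 5097 in kidney, 2362 to 2792 in liver and 3479 to 4120 in testis. Most of the B cell sum outside lymph node and spleen was Cd22, with means from 2086 in liver to 5423 in spleen and 4318 in brain. Cd72, Fcer2a and Cxcr5 each had their highest means in lymph node and spleen. Fcer2a, for instance, was 2805 and 2227 there, 513.1 in bone marrow, 265.2 in thymus and 243.1 in brain. The part of these markers in the B4galt1 and B3gnt2 differences was not tested.

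**Figure D3:**
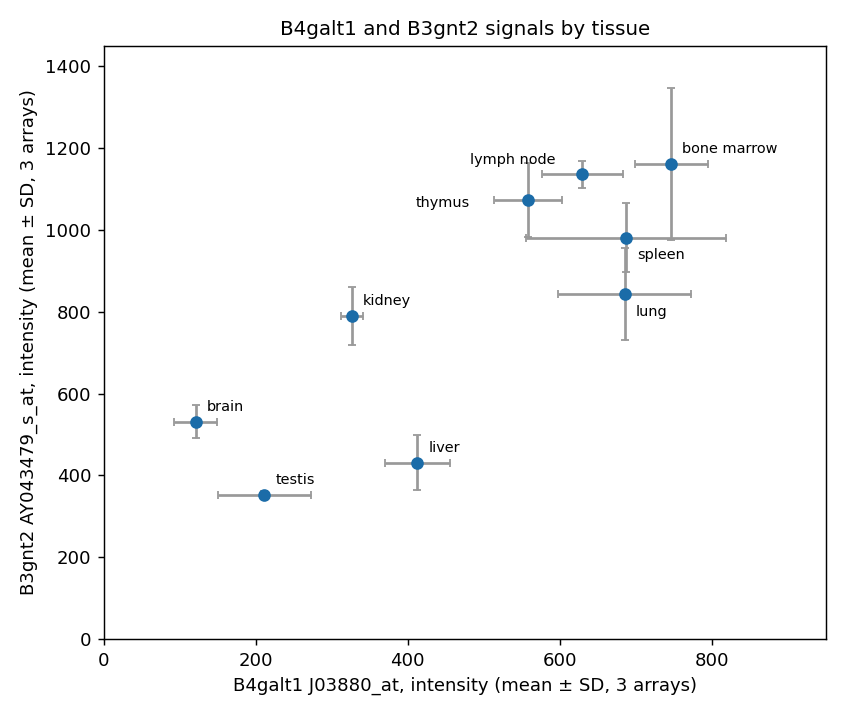
Tissue means ± SD (3 arrays) of B4galt1 on J03880_at (horizontal) and of B3gnt2 on AY043479_s_at (vertical), both as deposited intensity. Bone marrow, lymph node, spleen, thymus and lung lie at the upper right, and brain, testis and liver have B3gnt2 means of 531.3, 351.8 and 431.4; positions on the axes are not comparable between the genes.

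Genes listed with the 3 enzymes had tissue patterns of their own. Of the 5 other beta-galactosyltransferases measured, 2 were called by the F test, beside 50.1% of genes at 1 probe set per gene. B4galt4 was highest in lung (922.1 ± 173.2, higher by 2.52 on the log2 scale than the other 8 tissues) and lowest in liver (94.9 ± 2.1, -1.15), and B4galt6, a lactosylceramide synthase, was higher in brain by 1.35 (749.1 ± 58.6), where B4galt1 was lowest. B4galt2, B4galt3 and B4galt5 ranged over 0.50, 0.81 and 0.27. Of the 5 measured genes listed with B3gnt2 (B3gnt3, B3gnt4, B3gnt5, B3gnt9 and B4gat1), 3 were called. B3gnt5, which starts lacto-series glycolipids, was higher in lymph node by 1.29 and in spleen by 1.06 (0.96 with an offset of 16, 0.99 with array weights and 0.93 without spleen replicate 1, none of them called). B4gat1, which acts on dystroglycan glycans, was higher in brain by 1.26, and B3gnt4 ranged over 1.004 with its top in testis. The B3gnt4 range was 0.95 with median centring, 0.97 with the offset, 0.98 without testis replicate 1 and 0.995 without thymus replicate 2, and was not called in any of these. B3gnt3 and B3gnt9 ranged over 0.46 and 0.36. For these and the following genes the background is the share of mouse probe sets called higher than the other 8 tissues: 6.13% in bone marrow, 5.56% in brain, 6.55% in kidney, 4.42% in liver, 9.54% in lung, 11.8% in lymph node, 9.97% in spleen and 2.99% in testis. Called lower were 10.7% in brain, 9.97% in liver and 13.4% in testis.

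Both measured relatives of Gcnt2 were called by the F test, beside 50.1% of all genes. Gcnt1, the core 2 enzyme that opens O-glycans to chain extension, was higher in kidney by 1.26 (943.0 ± 48.5) and lowest in liver (322.2 ± 32.7). Gcnt3 ranged over 1.01 with its top in testis (mean 507.7), but over 0.98 with median centring, 0.97 with the offset of 16 and 0.996 without testis replicate 2, none of them called. U68182_s_at of Gcnt2 shared with Gcnt1 a positive difference in kidney (0.84, not called), but in testis Gcnt2 gave -0.79 where Gcnt3 had its highest mean.

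**Figure D4:**
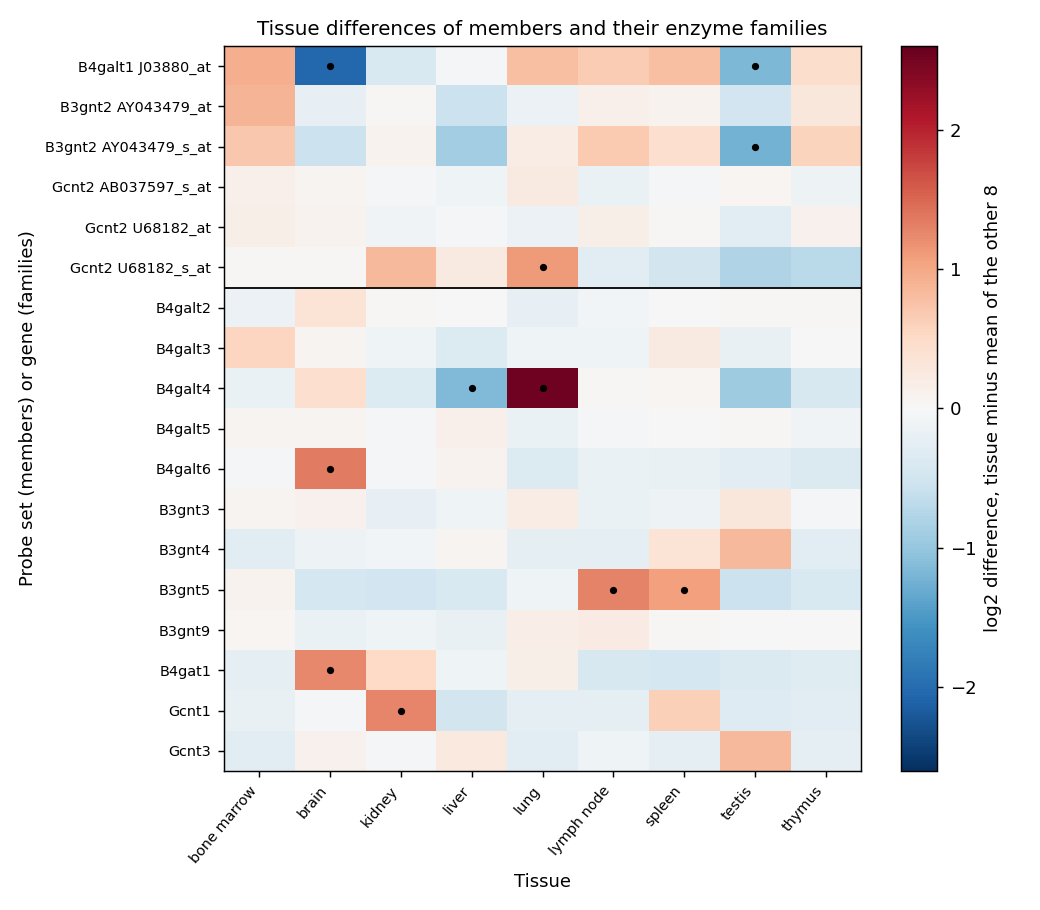
Log2 difference of each tissue from the mean of the other 8. Above the line are the 6 probe sets of B4galt1, B3gnt2 and Gcnt2. Below it are the 12 genes listed with them, at 1 probe set per gene. A black dot marks a called difference. Among the members, dots stand at B4galt1 in brain (-2.05) and testis (-1.16), AY043479_s_at in testis (-1.22) and U68182_s_at in lung (1.10).

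Over the lists of genes that supply, carry, cap, read or degrade these chains, 29 of 49 measured genes were called by the F test, beside 50.1% of all genes, and their median range was 1.23 beside 1.003. Of 5 N-glycan branching genes 2 were called: Mgat1, which opens the complex N-glycan pathway, fell by 1.92 in testis, where B4galt1 and AY043479_s_at were also called lower, and Mgat2 had its top in kidney and its lowest mean in brain. Of 11 capping genes 5 were called, among them St6gal1, the alpha2,6-sialyltransferase of N-glycan galactose, higher in lymph node and spleen by 1.27 each and lower in testis (-1.07, and -0.95 without testis replicate 1, where it was not called). Fut9, which completes the Lewis x epitope, was called higher in kidney (3.69) and brain (1.85, but 0.82 with a floor of 64 and then not called). It was called lower in lung (-1.17, tissue mean 22.9) and lymph node (-1.02), and neither call was kept with that floor (-0.50 each) or with an offset of 16 (-0.89 and -0.81). The lung call was also lost without lung replicate 3 (-0.93). The lymph node call was lost with quantile normalization (-0.96), with median centring (-0.999) and without lymph node replicate 1 or 2, brain replicate 3, lung replicate 2 or spleen replicate 2 (-0.999 to -0.94). St3gal6 was called lower in liver (-1.39) and higher in lung (1.17), and St3gal3 ranged over 1.24. All 4 measured carriers were called. Lamp2, a lysosomal membrane protein that carries such chains, was lower in brain (-1.89) and testis (-1.72), both low in B4galt1. Lamp2 was higher in kidney (1.77) and liver (1.75). Over all mouse probe sets, 10.7% were called lower in brain and 13.4% in testis. The other called carriers were Fmod, Lum and Lamp1 with ranges of 2.83, 2.11 and 1.45.

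Of 6 genes of donor supply 5 were called by the F test. For this list and those that follow, the share over all genes was 50.1%. Galt, of galactose metabolism, was higher in liver (1.23) and lower in testis (-1.39), Ugp2 was higher in liver (1.63), the UDP-N-acetylglucosamine transporter Slc35a3 was higher in kidney (1.41) and testis (1.39), and Uap1 ranged over 1.25. Of 5 sulfotransferases 3 were called: Chst2, higher in brain by 1.29, Chst5, higher in liver by 1.04 (0.95 without liver replicate 1, not called), and Chst7 with a range of 1.04 (0.98 with the offset, not called). Of 4 galectins, readers of the chain, Lgals8 was called with a range of 1.43 and no called single tissue. Both measured breakdown enzymes were called, the beta-galactosidase Glb1 higher in kidney (1.80) and Hexa higher in bone marrow (1.12, and 0.96 without bone marrow replicate 3, where it was not called).

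Genes with the most similar pattern were taken from 285 other genes called by the F test, by Pearson's r over the 9 tissue means. For B4galt1 they were Tnfrsf1a (r = 0.90), Ifngr1 (r = 0.89) and Gusb (r = 0.89). For AY043479_s_at of B3gnt2 they were Mgat1 (r = 0.93), Btg2 (r = 0.90) and the polysialyltransferase St8sia4 (r = 0.88), and for AY043479_at they were Lta4h (r = 0.92), Hmgn2 (r = 0.91) and Junb (r = 0.88). For U68182_s_at of Gcnt2 they were Vegfa (r = 0.91), Muc1 (r = 0.89) and Fzd4 (r = 0.89). The probe sets without a called tissue pattern also had nearest genes, Bsg for AB037597_s_at (r = 0.83) and Ogt for U68182_at (r = 0.81), so that an r above 0.8 was also reached by them. No gene was among the nearest 3 for more than 1 of the 6 probe sets.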

How the data were processed

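The authors deposited linear intensity values of 1813 probe sets for each of 27 arrays, per the file headers; how they summarised, background-corrected and scaled them is not stated in these sources. Names came from the platform annotation and were matched by gene identifier to RefSeq (GRCm38.p6), which gave 702 mouse probe sets of 573 genes; 248 probe sets had no symbol and 2 had several. Intensities under 16 were raised to 16 (51 mouse values) and log2 taken, with no further scaling.

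limma 3.58.1 in R 4.3.3 was fitted to all 702 probe sets with 1 coefficient per tissue, with Benjamini-Hochberg adjustment over probe sets within each contrast. Within-gene differences between probe sets were fitted likewise over 136 pairs of 122 genes. Where a gene list needed 1 probe set per gene, the one with the highest mean was kept. Named were all probe sets of the 3 genes and all measured genes of their family lists. Also named were up to 4 called genes with the largest range of each other list, and the 3 genes nearest in tissue pattern. The scripts were tested on simulated data. Members and lists were chosen with earlier results of these data known. The title numbers 1 to 3 were not taken as pairing the arrays: deviations from tissue means correlated with a median r of 0.02 between arrays of the same number. The number of arrays limits the precision.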

Additional observations from a re-analysis of the deposited data

How the results depend on the processing

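Other settings tried were array weights, trend and robust eBayes, 1 probe set per gene, the replicate block by title number, a reference taken as the other tissues' median, a floor of 64, an offset of 16, quantile normalization, centring on array medians, omission of the probe sets with the lowest means, and omission of each array in turn. No called value of the 6 probe sets changed sign under any of them. With 1 probe set per gene, AB037597_s_at was the one kept for Gcnt2, so that 2 probe sets of the 3 genes were called in place of 4 and the lung and kidney signal of U68182_s_at was not seen. Omission of the lowest probe sets removed all 3 Gcnt2 probe sets, which have no value there, and reduced the called pairs of probe sets of a gene from 50 to 20, over fewer pairs. With quantile normalization the called tissue pairs of AY043479_s_at fell to 8 from 13, and its lymphoid difference was 0.69; the cause was not tested. Leaving out 1 array gave -1.36 to -0.92 for B4galt1 in testis, 0.97 to 1.30 for U68182_s_at in lung and 0.98 to 1.30 for the range of the B3gnt2 difference, in each case under the threshold for 1 array. The replicate block changed no call of the 6 probe sets, with 367 mouse probe sets called and a B4galt1 range of 2.66 (adjusted p = 4.00e-11). Among 108 pairs of arrays with the same number 23 had a correlation of deviations over 0.1, and for 8 of 27 arrays the best partner had the same number. Gcnt2 levels on all 3 probe sets lie within the range of human probe sets, which limits what they show. The limit holds in part for the other genes. Of the 27 arrays, 11 exceeded the human 95th percentile for B4galt1, 7 for AY043479_at and 18 for AY043479_s_at of B3gnt2.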
